A study of Mus musculus with 2 samples.

Results

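The clustered protocadherin genes encode a large family of adhesion proteins of the cell surface and lie in 3 tandem clusters, alpha, beta and gamma, on mouse chromosome 18. All genes with a symbol beginning with Pcdha, Pcdhb or Pcdhg in the GENCODE vM21 basic annotation were taken, which gave 58 members of 55413 genes in all. They comprise 12 alpha genes, 22 beta genes, 12 gamma A genes, 7 gamma B genes and 5 C-type genes (Pcdhac1, Pcdhac2, Pcdhgc3, Pcdhgc4 and Pcdhgc5), with 57 symbols, since 2 gene entries carry the symbol Pcdha11. All lie on the plus strand of the assembly mm10. The clusters with 100 kb on either side, called the neighbourhood here, span chr18:36830184-37941873.

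Open chromatin was mapped by DNase-seq, in which the nuclease DNase I cuts accessible DNA in nuclei and the cut ends are sequenced. The sample was liver of embryos of the strain B6NCrl at 11.5 days, with males and females pooled. There were 2 libraries, technical replicate 7 and technical replicate 1, of 1 biological sample. There is therefore no comparison between conditions, and no value below has a biological error. Intervals are exact Clopper-Pearson 95% intervals and cover counting error only.

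In neurons, where the family is best known, each cell transcribes a few of the alpha, beta and gamma variable exons, each from a promoter of its own, while the C-type exons at the ends of the alpha and gamma clusters are used by a larger share of cells. In the alpha and gamma clusters the variable exon is spliced to constant exons shared by the whole cluster. The proteins pair between neighbouring cells when their sets match, which lets the branches of a neuron tell themselves from those of other cells. The promoters of most variable exons hold a conserved element that binds CTCF, a zinc finger protein that, with the ring-shaped cohesin complex, anchors loops between these promoters and enhancers downstream of the alpha and gamma clusters. The liver is not a tissue for which the family is known.

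The libraries differed in the length of their lists. The peak list of technical replicate 7 had 86036 peaks and that of technical replicate 1 had 42422. The density of cuts that the authors give for each peak was stepped 2.52 times more coarsely in technical replicate 1. A peak called in both libraries is named a shared peak, and there were 34023 shared peaks. Of the marker genes examined, 5 of 5 erythroid genes, 3 of 6 hepatoblast genes, 3 of 3 mesenchymal genes, 2 of 3 endothelial genes and 3 of 5 neuronal genes had a shared peak near a start, that is, centred within 1 kb of it. Over all protein-coding genes, 59% had such a peak. Alb, which encodes albumin, had none in either library. The neuronal genes with a shared start peak were Snap25, Map2 and Tubb3, and their part in the values below was not tested. Elavl3 and Neurod1 had no shared start peak.

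Few member starts were open in both libraries. By the same measure, 2 of 58 members had a shared start peak, namely Pcdhgc3 and Pcdhgc4, which is 3.45% (95% interval 0.42 to 11.9). Over all 21938 protein-coding genes the share was 59%. The list of technical replicate 7, taken by itself, placed a peak at the start of 19 members, these 2 included, 32.8% (95% interval 21 to 46.3), against 65% of protein-coding genes. Technical replicate 1 placed one at the same 2 members, against 59.6% of protein-coding genes. In tissue of many cell types, a start open in few cells and a start weakly open in many cannot be told apart. Neighbouring members share sequence and surroundings, so they are not independent observations.

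**Figure D1:**
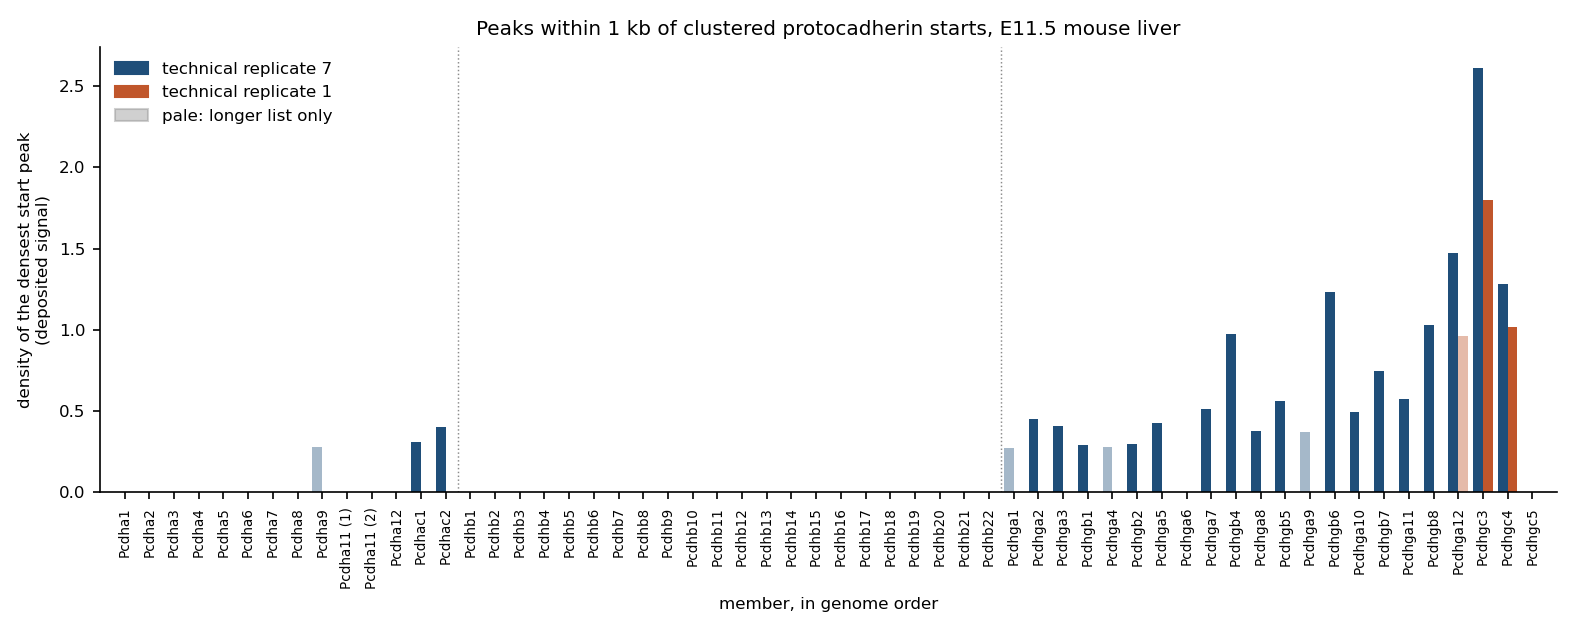
Density of the densest peak within 1 kb of a start for each of the 58 members in genome order, in technical replicate 7 (blue) and technical replicate 1 (orange); the vertical axis is the authors' density, pale bars are peaks of the longer lists only, and no bar means no peak listed. Bars stand over the gamma cluster and, at low density, over Pcdha9, Pcdhac1 and Pcdhac2, while the beta cluster has none.

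Start peaks were unevenly spread over the clusters. In technical replicate 7 a start peak was listed for 65% of protein-coding genes. It was listed for 17 of 22 members of the gamma cluster (77.3%, 95% interval 54.6 to 92.2), an interval that holds 65%. The counts were 2 of 14 members of the alpha cluster (14.3%, 95% interval 1.78 to 42.8) and 0 of 22 members of the beta cluster (95% interval 0 to 15.4). By subgroup these were 7 of 7 gamma B genes, 8 of 12 gamma A genes, 4 of 5 C-type genes, 0 of 12 alpha genes and 0 of 22 beta genes. The intervals treat members as independent, which neighbouring genes of 1 library are not, and no difference between clusters was tested. With technical replicate 7 limited to its strongest peaks, as many as technical replicate 1 has, 7 members kept a start peak (Pcdhgb4, Pcdhgb6, Pcdhgb7, Pcdhgb8, Pcdhga12, Pcdhgc3 and Pcdhgc4), all in the gamma cluster. In the longer lists of the same library the counts were 18 of 19 gamma A and B genes, 1 of 12 alpha genes and 0 of 22 beta genes. No share of protein-coding genes by the same measure is given for the limited or the longer list.

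Among the C-type genes, Pcdhgc3 (chr18:37806364-37841873) had the densest start of the family. Its densest peak had a density of 2.61 in technical replicate 7, at percentile 90.5 of that library's peaks, and 1.8 in technical replicate 1, at percentile 68.7. The shared region at chr18:37806102-37806584 covers the start, and a further shared region at chr18:37806878-37807168 lies in its variable exon, within 1 kb of a start of the antisense transcript BC037039, with densities of 0.525 and 0.96. Hotspots, the authors' broader regions of raised cutting, reached a −log10 FDR of 34.4 in technical replicate 7 and 8.78 in technical replicate 1 at this gene. Footprints, short stretches protected from cutting, numbered 5 and 12 within 1 kb of the start. Both libraries thus listed Pcdhgc3 by every measure deposited.

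Pcdhgc4 (chr18:37815079-37841873) was the other member open in both libraries. Its densities were 1.28 in technical replicate 7 and 1.02 in technical replicate 1, at percentiles 78.1 and 35.3. Its hotspots reached a −log10 FDR of 14.8 and 4.41, and each library listed 2 footprints. Pcdhgc5 (chr18:37819513-37841873), the last gene of the gamma cluster, had no peak, hotspot or footprint at a start in any list. Its start window also had a CpG ratio of 0.233, the lowest of the gamma cluster, where the ratio is the observed over the expected number of CpG dinucleotides within 500 bp. The median over protein-coding genes was 0.552.

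The C-type genes at the end of the alpha cluster had start peaks in the stricter list of technical replicate 7 and none in that of technical replicate 1. Pcdhac1 had a density of 0.308, at percentile 3.66, with hotspots in both libraries at a −log10 FDR of 4.23 and 1.69. Pcdhac2 had 2 start peaks, the denser of 0.405 at percentile 20.2 with its summit 782 bp after the start. A hotspot at Pcdhac2 was listed in technical replicate 7 at a −log10 FDR of 8.09 and in technical replicate 1 not at all. Technical replicate 1 listed 2 footprints at Pcdhac1 and 5 at Pcdhac2. In its earlier peak lists, made by the authors from another processing, Pcdhac2 was listed in all 3 lists and Pcdhac1 in 2.

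The 12 other alpha genes and the 22 beta genes had almost no listed signal. Pcdha1, at the start of the alpha cluster, and Pcdhb22, at the end of the beta cluster, had no peak, hotspot or footprint in any list. Pcdhb1, at the start of the beta cluster, had no peak or hotspot, but 20 bases within 1 kb of its start were listed at an FDR below 0.05 in the cut-rate file of technical replicate 1. Further members here are named after their values were seen. Pcdha9 had a density of 0.276 in the longer list of technical replicate 7 and a hotspot at a −log10 FDR of 2.92. Pcdhb3 and Pcdhb10 lay in hotspots of technical replicate 7 at 1.52 and 1.39, with no peak.

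The alpha and beta starts could be told apart from other genomic sequence to different extents. Over the 500 bp on either side of a gene's 5′ end, the share of 31-base words that occur once in the reference genome had a median of 100% for beta genes, 77.5% for alpha genes, 97.8% for gamma A genes, 80.4% for gamma B genes and 100% for C-type genes, against 100% for protein-coding genes. Among beta genes 18 of 22 had at least 90% unique words (81.8%), the same share as in protein-coding genes (81.8%). The count was 1 of 12 for alpha genes, 12 of 12 for gamma A genes and 5 of 5 for C-type genes. Of the 7 gamma B genes, all with a peak in technical replicate 7, 3 had at least 90% unique words. The CpG ratio had a median of 0.684 for alpha genes, 0.378 for beta genes, 0.588 for gamma A genes, 0.642 for gamma B genes and 0.67 for C-type genes. The part of uniqueness and of CpG content in the peaks was not tested.

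The gamma A and B genes had start peaks of a wide range of densities in technical replicate 7, with denser ones towards the end of the cluster that adjoins the C-type genes. Of 19 genes, 15 had a start peak in this library (78.9%), against 65% of protein-coding genes. The 15 had densities between 0.292 and 1.47, at percentiles 2.35 to 81.4 of the library's peaks. Before Pcdhga6, the 5 genes with a peak (Pcdhga2, Pcdhga3, Pcdhgb1, Pcdhgb2 and Pcdhga5) had densities of 0.292 to 0.453. From Pcdhga7 to Pcdhgb5 the 4 genes with a peak had 0.377 to 0.973. From Pcdhgb6 to Pcdhga12 the 6 genes with a peak had 0.497 to 1.47. Density and position along the cluster had a Spearman correlation of 0.761 over these 15 genes, a description across genes of 1 library. With the longer list it was 0.759 over 18 genes.

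The densest of them were Pcdhga12 at 1.47, Pcdhgb6 at 1.23, Pcdhgb8 at 1.03, Pcdhgb4 at 0.973 and Pcdhgb7 at 0.749. Pcdhgb8 is annotated as a polymorphic pseudogene. The median density was 0.475 for the 8 gamma A genes with a peak and 0.749 for the 7 gamma B genes. Each gamma B gene lies between 2 gamma A genes, and 4 of 7 (Pcdhgb4, Pcdhgb5, Pcdhgb6 and Pcdhgb7) were denser than both of these. Those same 4 genes had 70.5% to 80.4% unique words, whereas Pcdhgb1, Pcdhgb2 and Pcdhgb8 had 100%. Pcdhga1, which opens the cluster, was listed at 0.272 in the longer list only. Pcdhga6, named after its values were seen, was the single gamma A or B gene with no peak, hotspot or footprint in any list.

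Technical replicate 1 listed few of these starts. Its stricter list held no gamma A or B start, and its longer list held Pcdhga12 alone, at 0.96. Of the peaks of technical replicate 7 at protein-coding starts with a density of 0.5 to 1, 67.4% overlapped a peak of technical replicate 1, against 0 of 5 members whose densest start peak fell in that range. Below 0.5 these figures were 41.2% and 0 of 9 members, from 1 to 1.5 they were 89.5% and 1 of 4 members, and above 1.5 they were 99.2% and 1 of 1. These shares over all starts describe how the libraries relate by density, and the difference was not tested.

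Hotspots, which reach lower signal than the peaks, gave the same order of clusters, with 20 of 22 gamma-cluster, 3 of 14 alpha-cluster and 2 of 22 beta genes in technical replicate 7. A hotspot lay within 1 kb of a start in both libraries for 7 members (Pcdhac1, Pcdhgb6, Pcdhgb7, Pcdhgb8, Pcdhga12, Pcdhgc3 and Pcdhgc4), against 64.5% of protein-coding genes. Technical replicate 7 gave 25 members, against 70.2% of protein-coding genes, and technical replicate 1 gave the same 7, against 65%. The 7 members with a hotspot in technical replicate 1 had densities of 0.308 to 2.61 in technical replicate 7, with a median of 1.23. The 12 with a peak in technical replicate 7 and no hotspot in technical replicate 1 had 0.292 to 0.973, with a median of 0.441. The ranges overlap, through Pcdhac1 at 0.308 and Pcdhgb4 at 0.973.

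Footprints were listed at the starts of 18 members in technical replicate 7, against 60.4% of protein-coding genes. In technical replicate 1, whose footprints come from another processing, they were listed at 11 members, against 65.6%. By subgroup in technical replicate 7 these were 7 of 12 gamma A genes, 6 of 7 gamma B genes, 3 of 5 C-type genes, 1 of 12 alpha genes and 1 of 22 beta genes. The 11 members with a footprint in technical replicate 1 were the same 11 that its longer earlier peak list held at a start, with Pcdhga2, Pcdhga3, Pcdhga5 and Pcdhga7 among them but neither Pcdhgb4 nor Pcdhgb8, although these were denser in technical replicate 7.

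**Figure D2:**
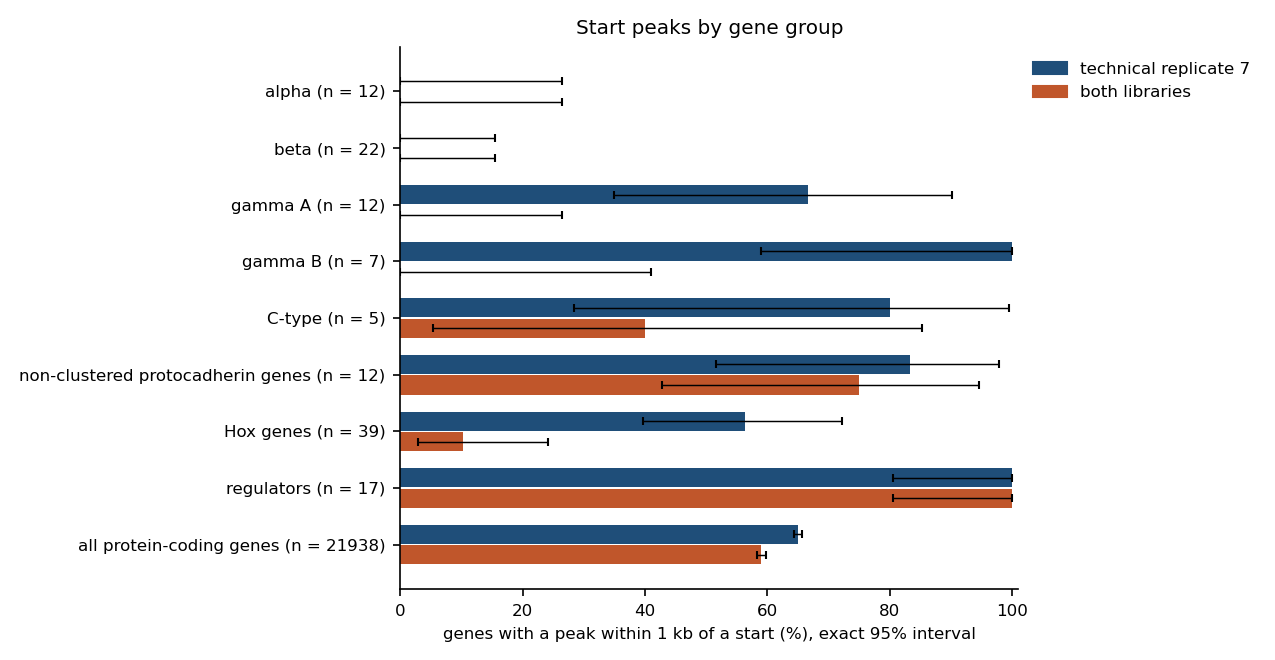
Percentage of genes with a peak within 1 kb of a start in technical replicate 7 (blue) and in both libraries (orange) for the member subgroups and, below them, non-clustered protocadherin genes, Hox genes, regulators and all protein-coding genes; whiskers are exact 95% intervals. Alpha and beta genes have no bar, and gamma A, gamma B and Hox genes have long blue bars with short or absent orange ones.

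Genes outside the clusters give a scale for these counts. Among all protein-coding genes, 59% had a shared start peak and 65% had a start peak in technical replicate 7. Of 12 non-clustered protocadherin genes, which encode related proteins from single genes, 9 had a shared start peak and 10 had one in technical replicate 7. Pcdh17 had densities of 3.24 and 2.92 in technical replicates 7 and 1, whereas Pcdh12 and Pcdh15 had none. All 17 genes of a list of regulators of the clusters had a shared start peak, with Ctcf at 3.52 and 3.8, the cohesin subunit gene Rad21 at 4.83 and 3.39, and Smchd1, whose product is known to repress these clusters in mouse cells, at 4.39 and 3.7. Of 39 Hox genes, another set of clustered developmental genes, 4 had a shared start peak and 22 had one in technical replicate 7. For the 19 gamma A and B genes the same counts were 0 and 15, and for the 34 alpha and beta genes both were 0.

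Summits at the gamma starts stood at nearly the same distance from the annotated 5′ end. Of the 18 gamma A and B genes with a peak in the longer list of technical replicate 7, 17 had their summit within 150 bp before the 5′ end, with a median offset of −41.5 bp and an interquartile range of 39.8 bp. Over 14080 protein-coding genes with such a peak 52.3% had it there, with a median of −26 bp and an interquartile range of 125 bp. The exception was Pcdhga12, whose summit stood 326 bp after the start, inside the variable exon. The measure was chosen after the values were seen.

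CTCF sites were searched with a matrix built from peaks away from starts, without any peak of the chromosome that holds the clusters. It was grown from 2 seeds, AGGGGGCGC and AGGTGGCAG, over 6 rounds of best matches. The consensus of its 20 positions is shown so that the site can be compared with the CTCF motif in use, with the 9 positions of over 1 bit in capitals. With it are 3 sites in intergenic DNA of mm10 that lie in shared peaks, read from the reference along the minus strand, as the highest-scoring site and the 2 in the densest shared peaks.
Consensus: tggCCAccAGGgGGCgctag
Site at chr7:24653870-24653889: tggCCAccAGAgGGCgctat
Site at chr5:114667716-114667735: tgtCCGgtAGGtGGCgctgt
Site at chr7:73618510-73618529: cggCCAccAGGgGGCagccg

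A match was called at a score of at least 13.3, which 1% of windows of 150 bp in flanking DNA reached. In the central 150 bp of a peak, 21.6% of shared peaks and 20.9% of the peaks of technical replicate 7 held a match, as did 43.8% of shared peaks over 1 kb from any start. Within 500 bp of the 5′ end, 2 of 58 members held a match, Pcdha3 at a score of 13.7 and Pcdhga12 at 15.5, against 5.59% of protein-coding genes. The match at Pcdhga12 was centred 242 bp after the start and lay inside its peak in technical replicate 7. That at Pcdha3 was centred 90 bp before the start, where no peak was listed.

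Most alpha and beta starts nonetheless carried their best match at a common place, below that score in all but Pcdha3. The highest-scoring position within 500 bp was on the gene's strand and within 150 bp before the 5′ end in 10 of 12 alpha genes, 18 of 22 beta genes, 4 of 19 gamma A and B genes and 0 of 5 C-type genes. In protein-coding genes this was so for 11%. The 95% intervals were 51.6% to 97.9% for the alpha genes and 59.7% to 94.8% for the beta genes. Median scores were 11.3 in alpha genes, 10 in beta genes and 5.61 in gamma A and B genes, against 5.26 in protein-coding genes. The place was chosen after the values were seen, and the members of a cluster are related in sequence. Pcdha9, with a peak in the longer list of technical replicate 7, had its best match at this place with a score of 12.4, and Pcdhga3, with a peak in the stricter list, had one of 9.47.

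**Figure D3:**
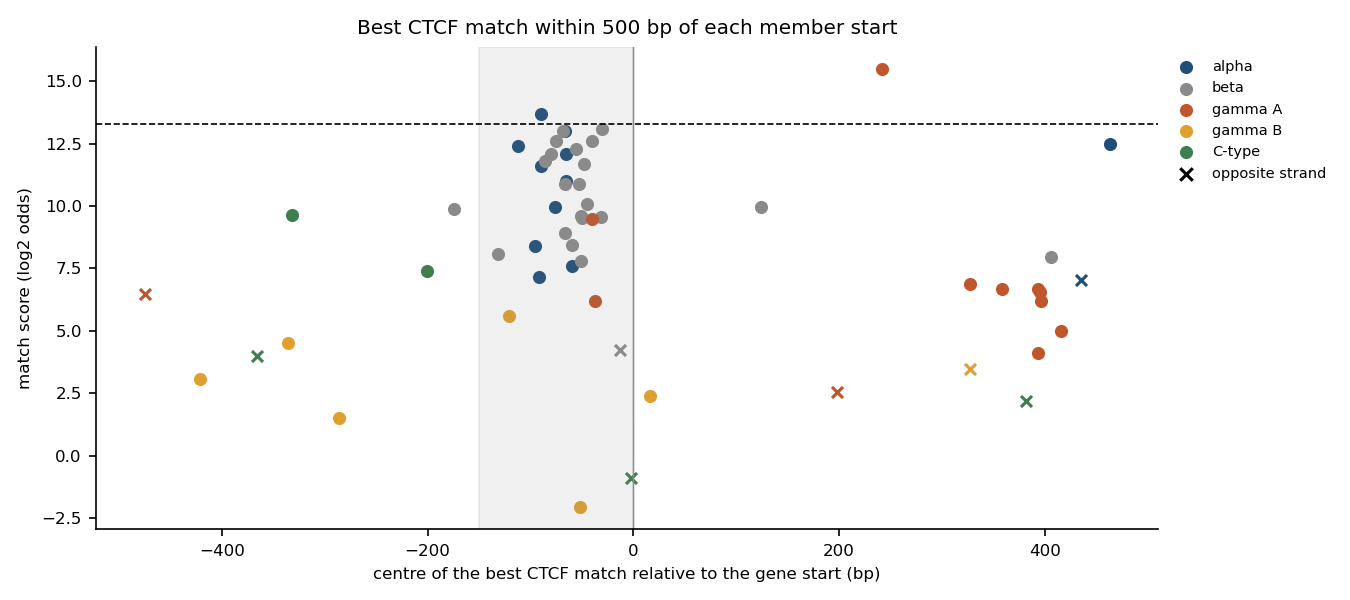
Score of the best CTCF match within 500 bp of each member's 5′ end against the distance of its centre from that end (bp), with circles for the gene's strand and crosses for the opposite strand; the dashed line is the score of a called match and the shaded band the 150 bp before the start. Alpha and beta genes gather in the band, at scores of up to 13.7 and all but Pcdha3 below the line, while gamma A and B genes scatter.

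Over the whole neighbourhood, member starts included, shared peaks gathered in and after the gamma cluster. The neighbourhood of 1112 kb held 13 shared peaks, 1.17 per 100 kb, against 1.25 per 100 kb over all chromosomes. None lay in the 100 kb before the alpha cluster, in the alpha cluster or in the beta cluster. The stretch between alpha and beta held 1, that between beta and gamma held 1, the gamma cluster held 6 and the 100 kb after it held 5. In technical replicate 7 the counts in the same order of 7 stretches were 0, 7, 1, 0, 3, 26 and 18. Over 1 kb from member starts, the gamma cluster held 3 shared peaks and 6 peaks of technical replicate 7. The alpha cluster held 0 and 4 there. The beta cluster, 260 kb long, had no peak in any stricter or longer list of either library.

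**Figure D4:**
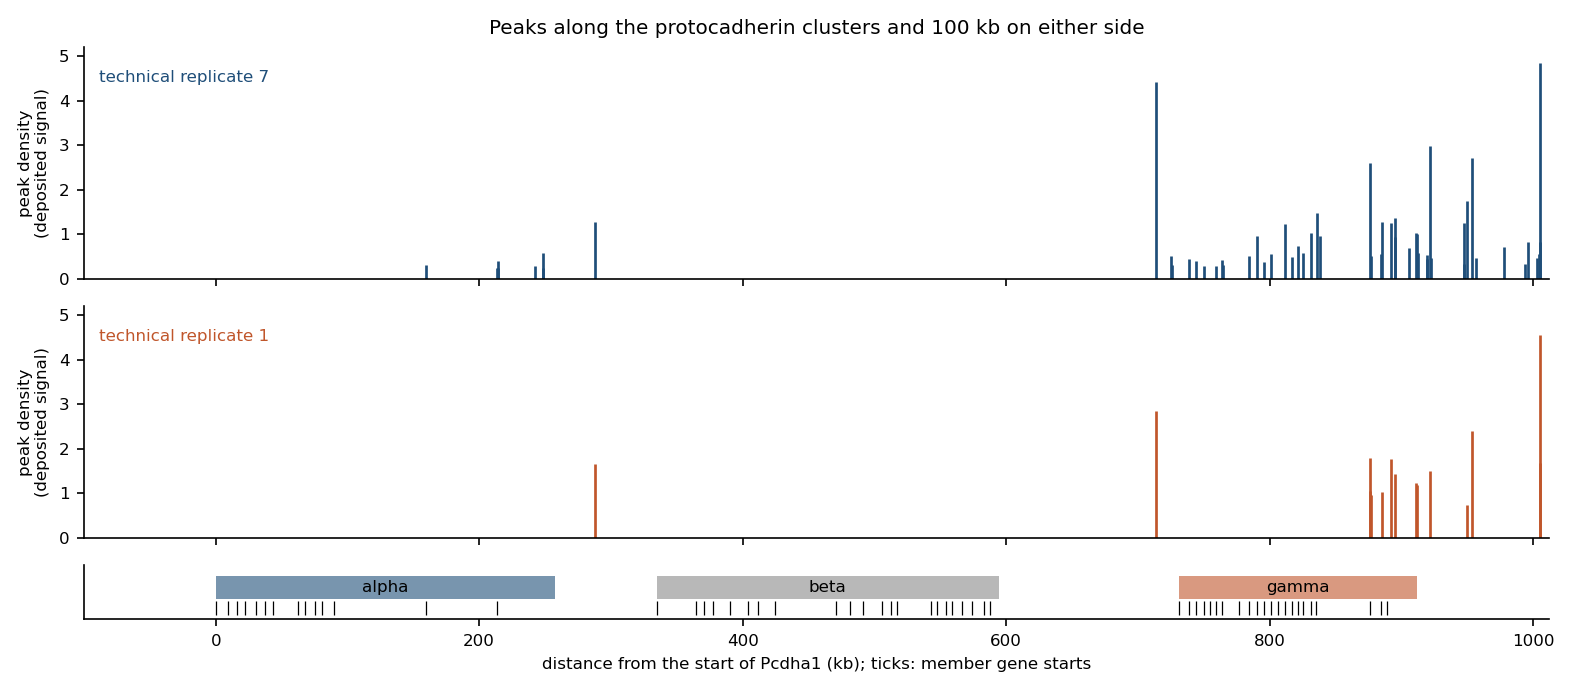
Peaks along the neighbourhood by distance from the start of Pcdha1 (kb), with the authors' density of each peak as a line, for technical replicate 7 (upper panel) and technical replicate 1 (middle panel); the lowest panel marks the 3 clusters and the member starts. Both libraries have lines near 288 kb and 714 kb and from 876 kb on, and none over the beta cluster.

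Open sites between the variable exons lay at the starts. Of 55 neighbouring pairs of members, 54 are separated by an interval between the end of the first variable exon and the next start. A shared peak was centred in 1 of these, the peak just before the start of Pcdhgc3, and a peak of technical replicate 7 in 15, of which 14 lie in the gamma cluster. None of the 54 intervals held a peak of either library over 1 kb from a member start. The intervals leave out the variable exons themselves. In these, technical replicate 7 had a peak 1026 bp after the start of Pcdhac2, at a density of 0.244. It had another 2730 bp after the start of Pcdhga12, at 0.965 and within 1 kb of a start of Gm26672. Inside the clusters 3 shared peaks lay over 1 kb from all member starts, all after the start of Pcdhgc5.

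The 10 shared peaks over 1 kb from member starts include the starts of both neighbouring protein-coding genes with a shared peak. Diaph1, which encodes a formin that builds actin filaments, had densities of 4.85 in technical replicate 7 and 4.56 in technical replicate 1 at chr18:37935340-37935720. Taf7, an intronless gene for a subunit of the general transcription factor TFIID, had 4.42 and 2.84 at chr18:37644063-37644368, 17543 bp before the start of Pcdhga1. Both exceeded every member in both libraries. The start of Taf7 was thus densely open between clusters whose nearest starts, Pcdhb22 and Pcdhga1, had no peak in the stricter lists. Of 6 protein-coding neighbours these were the 2 with a shared start peak, and 3 of the others, Gm42416, Gm37013 and Gm37388, run from the alpha into the gamma cluster.

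Between the alpha and beta clusters a single shared peak stood at chr18:37218224-37218485, 30703 bp after the end of the alpha cluster and 46574 bp before the start of Pcdhb1, in introns of Gm42416, Gm37013 and Gm37388. Its densities were 1.27 in technical replicate 7 and 1.66 in technical replicate 1, and footprints numbered 3 and 5. A CTCF match of 14.5 on the minus strand lay in the peak but outside its central 150 bp. An enhancer of the alpha cluster, HS5-1, is known downstream of that cluster in the mouse. Whether the peak is that element was not tested.

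After the start of Pcdhgc5 stood 8 shared peaks, the last of them at the start of Diaph1. A peak at chr18:37822471-37822910 in an intron of the gamma genes had densities of 1.25 and 1.77. A peak at chr18:37824894-37825542, over a constant exon shared by all 22 gamma genes, had 1.37 and 1.43. At the end of the cluster, a peak in the last shared exon at chr18:37841218-37841793 had 1.04 and 1.24, and the next, at chr18:37842011-37842880 in intergenic DNA, had 1.01 and 1.18. In introns of Diaph1 stood peaks at chr18:37852115-37852555 with 2.98 and 1.49, at chr18:37880116-37880501 with 1.75 and 0.747, and at chr18:37883522-37883776 with 2.72 and 2.39. Enhancers are known downstream of the gamma cluster in the mouse, and whether these peaks are those elements was not tested.

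In their central 150 bp, 2 of the 13 shared peaks held a CTCF match (15.4%, 95% interval 1.92 to 45.4), against 21.6% of all shared peaks. Both lay in introns of Diaph1, and both had a footprint of technical replicate 7 on the match. In technical replicate 7 the count was 4 of 55 (7.27%, 95% interval 2.02 to 17.6), against 20.9% of all its peaks. All 4 lay after the gamma cluster. Of the 55, 33 lay within 1 kb of a gene start. Over all shared peaks, 5.39% of those within 1 kb of a start held a match, against 43.8% of those farther away. Of the 23 peaks of technical replicate 7 within 1 kb of member starts 0 held one, and no share over all start peaks of that library is given. No share over all shared peaks was at hand for whole peaks, which here are longer than 150 bp. Searching them gave 5 shared peaks with a match. The strongest, at 22.2, lay in the last shared exon of the gamma genes with footprints of both libraries on it. The best match was on the minus strand in all 5, as it was in 2 further peaks of technical replicate 7 in Diaph1, opposite to the plus strand of the members. The match at Pcdhga12 was on the plus strand. In the peak at chr18:37883522-37883776 a weaker match of 15.2 lay on the plus strand nearer the centre.

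**Figure D5:**
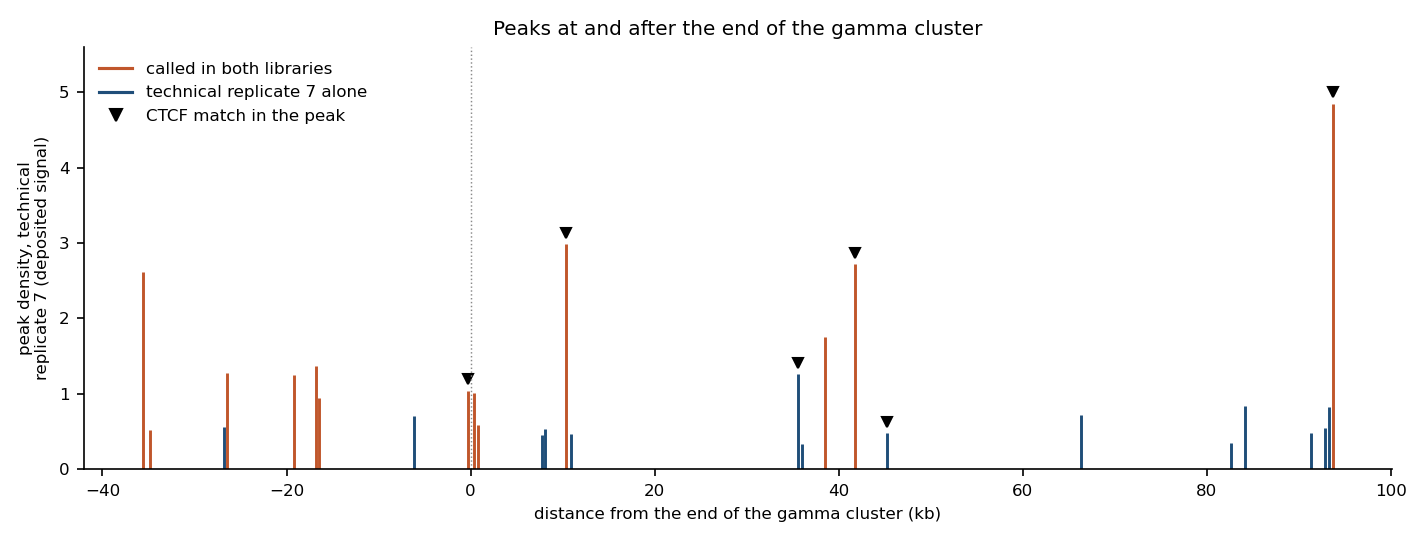
Peaks of technical replicate 7 by distance from the end of the gamma cluster (kb), with the authors' density as height, in orange where called in both libraries and in blue where called in this library alone; triangles mark peaks holding a CTCF match anywhere. Triangles stand over 6 peaks, from the end of the cluster to the start of Diaph1.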

How the data were processed

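Per the labels, 1 biosample gave the pair of technical replicates, and coordinates are on mm10. For the alignment and the calls of peaks and footprints, the tools are not given in the sources. The authors called peaks per library, with a density of cuts as signal. Hotspots carry a −log10 FDR, and those of the earlier processing a score, per the file headers and values. The deposited footprints of technical replicate 1 carry a constant p-value or FDR, those of technical replicate 7 positions only. The shorter, seemingly stricter peak lists were used. How many cuts each library holds is not stated, so no depth or floor per value is given; density steps were 0.00401 and 0.0101.

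Peaks overlapping by at least 1 bp between libraries were joined. A member was open where a peak's centre, or any part of a hotspot or footprint, lay within 1000 bp of a start (GENCODE vM21 basic). GRCm38 sequence served for CpG, uniqueness and the CTCF matrix, which was built from 7054 sites. Counts were tested on simulated data, with Python 3.11.15, numpy 2.4.6, scipy 1.17.1, numba 0.67.0 and matplotlib 3.10.9.

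Named were all members with a shared start peak, the 5 densest with a start peak in 1 library only, all C-type members, the first and last of each cluster, protein-coding neighbours with a shared start peak, and the 10 shared peaks over 1 kb from member starts with the highest mean density rank. Members and lists were chosen with earlier results of these data known. Sequence of the clusters is not shown.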

Additional observations from a re-analysis of the deposited data

Results flagged for a closer look

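Both results here come from files of technical replicate 1 that the main counts do not use. In the longer list of the earlier processing, 11 members had a peak at a start, against 2 in the stricter list of the main processing. They were Pcdhac1, Pcdhac2, Pcdhga2, Pcdhga3, Pcdhga5, Pcdhga7, Pcdhgb6, Pcdhgb7, Pcdhga12, Pcdhgc3 and Pcdhgc4, and all 11 had a start peak in technical replicate 7. That earlier list held 99983 peaks, and 66.7% of protein-coding genes had one at a start. The shorter earlier list held 62288 peaks, with one at a start of 3 members and of 61.9% of protein-coding genes.

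In the file of bases with an FDR of the cut rate below 0.05, 12 members had at least 1 listed base within 1 kb of a start. These were the 11 above, with 89 to 1358 bases, and Pcdhb1 with 20. Listed bases were read for the neighbourhood alone, so no share of protein-coding genes stands beside this count.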

How the results depend on the processing

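Of 47 alternative values for 8 counts, 32 stayed within 1.5 times and 15 moved further. Members open at a start (2) became 1 with the stronger 50% of shared peaks. With the earlier lists for technical replicate 1 they became 11 with either longer list and 3 with the shorter. Shared peaks of the neighbourhood (13) became 8 with the stronger 50%. Shared peaks away from starts inside the clusters (3) became 5, and intervals with a peak (1) became 2, with the longer lists. Neighbourhood peaks with a CTCF match (2) became 0 at the 10 times stricter score and with the plain consensus, and 5 with whole peaks searched. Leaving out a library gave 2 to 19 open members, 15 to 55 peaks, 3 to 10 peaks inside the clusters, 1 to 15 intervals, 2 to 4 matches and 7 to 25 members with a hotspot; each upper value is technical replicate 7 alone. Limiting technical replicate 7 to as many peaks as technical replicate 1 has, chosen after seeing the data, left 2 open members in both libraries, and 7 of the 19 members with a start peak in technical replicate 7 itself. No paired analysis was possible because there is 1 group. The limits are 1 biological sample, lists rather than reads, and unstated thresholds; a missing peak does not show a closed site.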
